A study of Mus musculus with 6 samples.

Results

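The BCL2 family was examined through 10 genes chosen by symbol, namely the survival genes Bcl2, Bcl2l1, Mcl1, Bcl2a1b and Bcl2a1d and the death-promoting genes Bax, Bak1, Bcl2l11, Bbc3 and Pmaip1. All 10 are among the 21604 symbols of the count table, and all 10 were among the 13014 genes with enough counts to be tested. RNA was sequenced from wild type RAW 264.7 cells, an established mouse line that the labels call bone marrow macrophage. The LPS group is 3 samples given lipopolysaccharide, the endotoxin of Gram-negative bacteria, at a dose of 100 ng/mL over 24 h. The LPS plus PE-CUR group is 3 samples given the same LPS with 2 mg/mL PE-CUR, the curcumin-loaded Pickering emulsion of the series title, for 24 h. Cells without LPS, an empty emulsion and free curcumin are not among the labelled samples, so each difference is between LPS with and LPS without PE-CUR. The labels do not say that replicates were separate cultures, and p-values then measure the spread between these samples, which may be technical.

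BCL2 family proteins meet at the outer membrane of mitochondria. BAX and BAK open pores there, which lets cytochrome c out and starts the caspases of apoptosis. Survival proteins such as BCL-2, BCL-XL and MCL-1 hold BAX and BAK in check, and BH3-only proteins such as BIM, PUMA and NOXA bind the survival proteins and release that check. In macrophages MCL-1 and the A1 proteins are short-lived and are renewed after activation, while BIM is known for removing myeloid cells that lose growth factor.

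Among the 10 genes, the BH3-only gene Bcl2l11, which encodes BIM, changed most and fell 3.94-fold with PE-CUR. Pmaip1, which encodes NOXA, also fell, while the pore genes Bax and Bak1 rose. Of the 5 survival genes, Mcl1, Bcl2l1 and Bcl2a1d rose, Bcl2a1b fell and Bcl2 did not pass the test. The directions of Bcl2a1b and Bcl2a1d are uncertain, since these copies are near-identical and the counting could split their reads. In all, 5 members were higher and 3 were lower at an adjusted p under 0.05 (edgeR quasi-likelihood test, Benjamini-Hochberg over all genes tested). The background is wide, since 63.4% of all tested genes were called, 30.8% as higher and 32.7% as lower. The share of members called, 8 of 10, is to be read against that. What follows gives the size, order and spread of each member.

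**Figure D1:**
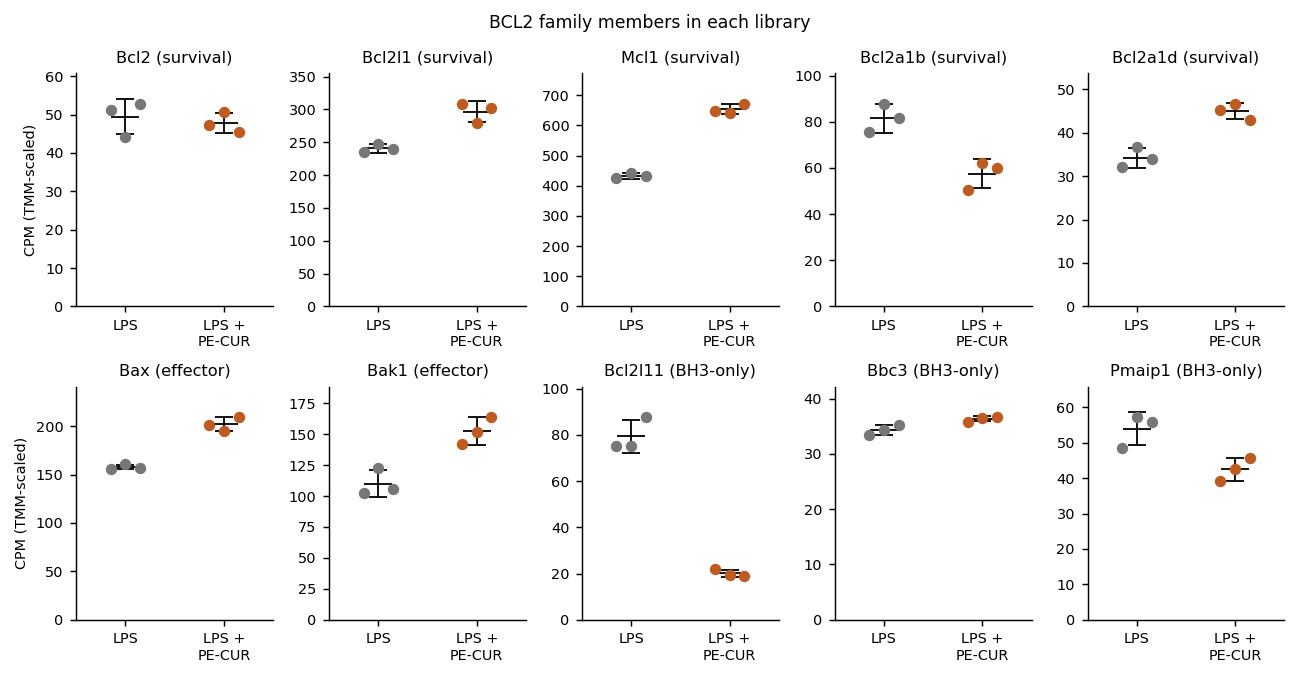
TMM-scaled CPM (y axis of each panel, starting at 0) of the 10 members in the 3 LPS libraries (grey points) and the 3 LPS plus PE-CUR libraries (orange points), with bars for mean ± SD. Relative to the height of its panel, Bcl2l11 has the widest gap, from at least 75.2 CPM in LPS to at most 21.9 CPM with PE-CUR, and the Bcl2 panel is the one in which the groups overlap.

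Total counts were 28530750 to 35276533 per library. Log2 CPM (counts scaled to library total times its TMM factor) across genes correlated at 0.985 or above within a group and at 0.955 or below between groups. Macrophage markers were present in every library (8 of 8 tested, of which 1 was higher, 3 were lower and 4 did not pass, against 63.4% called among all genes). Their summed level was 9378 to 10054 CPM in LPS and 7760 to 8480 CPM with PE-CUR. Most of it was Lyz2, at 6418 ± 349 and 4833 ± 347 CPM. Csf1r rose from 865 ± 53.4 to 1201 ± 102 CPM, while Adgre1, Itgam and Lyz2 fell (log2 -1.67, -0.27 and -0.41). Transcripts of 6 liver markers summed to 43.0 to 59.4 CPM in the LPS libraries and to 72.2 CPM in LPS plus PE-CUR replicate 3, but to 0.154 and 0.0589 CPM in replicates 1 and 2 of that group. The 5 fibroblast markers summed to 12.5 CPM in LPS plus PE-CUR replicate 2 and to 2.31 CPM or less elsewhere. Of 5 neutrophil markers 3 are in the table, with a summed level of 3.92 to 5.30 CPM in LPS and 1.69 to 2.53 CPM with PE-CUR, nearly all of it S100a8, while Elane and Mpo had at most 1 count in a library. The part of the liver, fibroblast and neutrophil transcripts in the results was not tested. With LPS plus PE-CUR replicates 1 and 2 both left out, every remaining library held the liver transcripts. Only 1 library of the PE-CUR group then remained, so the spread of that group was not measured. All 8 called members kept their direction in that fit, and the call of Pmaip1 did not hold (log2 -0.19). In bulk RNA, fewer cells of a kind and less RNA per cell cannot be told apart.

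Mcl1 (chromosome 3, 95656944 to 95663179, build mm10) encodes MCL-1, a survival protein with fast turnover that binds BIM, NOXA and BAK. Its level was 424, 442 and 431 CPM in LPS replicates 1 to 3 and 647, 639.5 and 672 CPM in LPS plus PE-CUR replicates 1 to 3. Every PE-CUR library lay above every LPS library, and the SDs were 8.77 and 16.9 CPM. The fold change was 1.51 (log2 0.59, SE 0.05, edgeR adjusted p = 2.83e-06, n = 3 per group). Of all tested genes, 16.5% had a higher log2 fold change.

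Bcl2l1 (chromosome 2, 152758732 to 152833803) encodes BCL-XL, with BCL-XS as a spliced form that promotes death, and counts per gene do not separate these forms. It stood at 235, 247 and 239 CPM in LPS and at 309, 279 and 302 CPM with PE-CUR. The groups did not overlap, and the rise was smaller than that of Mcl1, at 1.23-fold (log2 0.30, SE 0.06, edgeR adjusted p = 7.95e-04). Bcl2 (chromosome 1, 106538176 to 106714290), the founding survival gene of the family, stood at 51.2, 44.2 and 52.9 CPM in LPS and at 47.3, 50.7 and 45.5 CPM with PE-CUR. Its groups overlapped and it did not pass (log2 -0.05, 95% interval -0.23 to 0.13, edgeR adjusted p = 0.638).

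Bcl2a1b (chromosome 9, 89199273 to 89207838) and Bcl2a1d (chromosome 9, 88723288 to 88731850) are copies of the A1 gene, an NF-kB target whose product is a short-lived survival protein of blood cells. The mouse genome holds further copies, Bcl2a1a (chromosome 9, 88956920 to 88962416) and Bcl2a1c (chromosome 9, 114330135 to 114330578). The sequences are shown because the counts of these members rest on few differing bases in the reference genome. The sequence of these copies in the cells themselves was not examined. Of 516 coding bases, Bcl2a1b and Bcl2a1d share 510 (98.8%) and differ at G4T, T48C, A94C, G312A, C381G and T490A, counted from 1 at the A of the start codon, with the Bcl2a1b base first. The stretches below are coding bases 1 to 120 of the GENCODE M21 transcripts (chr9:89199360-89199479 on the plus strand for Bcl2a1b, chr9:88731600-88731719 on the minus strand for Bcl2a1d and chr9:88957051-88957170 on the plus strand for Bcl2a1a, mm10), with capitals at the 7 positions where the 3 copies are not all alike.
Bcl2a1b: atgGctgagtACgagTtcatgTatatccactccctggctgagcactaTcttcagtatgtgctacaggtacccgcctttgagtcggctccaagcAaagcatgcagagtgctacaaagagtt
Bcl2a1d: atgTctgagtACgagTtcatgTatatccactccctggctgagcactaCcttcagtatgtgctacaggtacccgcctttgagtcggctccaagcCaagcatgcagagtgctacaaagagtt
Bcl2a1a: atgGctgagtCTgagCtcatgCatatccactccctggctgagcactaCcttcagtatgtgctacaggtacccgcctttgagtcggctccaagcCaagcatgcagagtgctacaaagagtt
The longest coding run without a difference between Bcl2a1b and Bcl2a1d is 217 bases. Over whole transcripts, 31.1% of the 100-base windows of Bcl2a1b and 54.7% of those of Bcl2a1d occur unchanged in another copy, and with 150-base windows the shares are 14.2% and 30.3%. A read that lies in such a window cannot be assigned to 1 copy by its sequence. The sources used here state neither the read length nor how reads with several matches were treated.

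Bcl2a1b stood at 75.4, 87.8 and 81.4 CPM in LPS and at 50.3, 62.0 and 60.1 CPM with PE-CUR. All PE-CUR libraries lay below all LPS libraries (1.42-fold lower, log2 -0.50, SE 0.09, edgeR adjusted p = 5.04e-04). Bcl2a1d went the other way, from 32.1, 36.7 and 34.0 CPM to 45.2, 46.7 and 43.0 CPM, again without overlap (1.31-fold higher, log2 0.39, SE 0.07, edgeR adjusted p = 7.92e-04). The share of Bcl2a1b in the counts of these 2 copies was 70.2%, 70.5% and 70.6% in LPS and 52.7%, 57.1% and 58.3% with PE-CUR. The directions given for the single copies are uncertain, since the counting could split their reads.

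Bcl2a1a is the least abundant of the 3 copies with appreciable counts. It held 106, 115 and 152 counts in LPS and 74, 55 and 55 with PE-CUR (log2 -0.90, SE 0.21, edgeR adjusted p = 0.00309). Bcl2a1c had at most 2 counts in a library. Summed over the 4 copies, the A1 level was 111, 128 and 119.6 CPM in LPS and 97.7, 110.4 and 105 CPM with PE-CUR, all PE-CUR libraries being below 111 CPM. The sum passed as lower by a small margin (log2 -0.19, 95% interval -0.35 to -0.04, edgeR adjusted p = 0.0329). Leaving out 1 library at a time ended that call in 5 of 6 cases, with an adjusted p of 0.271 without LPS replicate 2, 0.152 without LPS replicate 3 and 0.152, 0.0534 and 0.0866 without LPS plus PE-CUR replicates 1, 2 and 3. It also ended in DESeq2 (adjusted p = 0.0582) and without a low count filter (edgeR adjusted p = 0.122).

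**Figure D2:**
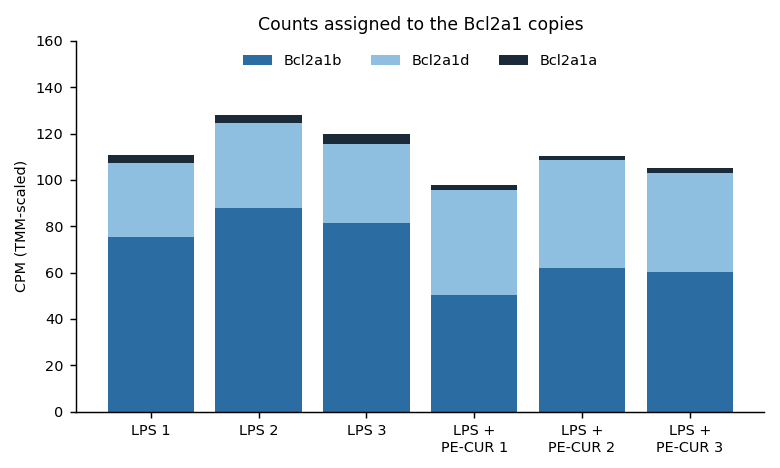
TMM-scaled CPM (y axis, from 0) assigned to Bcl2a1b, Bcl2a1d and Bcl2a1a in each of the 6 libraries (x axis), stacked. The Bcl2a1b segment is shorter and the Bcl2a1d segment taller in the LPS plus PE-CUR libraries, while the whole bars, 97.7 to 128 CPM, differ less.

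Bax (chromosome 7, 45461695 to 45466903) and Bak1 (chromosome 17, 27019812 to 27028627) encode the pore-forming effectors. Bax stood at 156, 161 and 157 CPM in LPS and at 201, 195 and 209.6 CPM with PE-CUR. The PE-CUR libraries were all higher (1.28-fold, log2 0.36, SE 0.05, edgeR adjusted p = 1.65e-04). Bak1 stood at 102, 122 and 106 CPM in LPS and at 142, 152 and 164 CPM with PE-CUR. Its groups did not overlap either, with LPS replicate 2 the nearest to the other group (1.39-fold, log2 0.47, SE 0.08, edgeR adjusted p = 3.96e-04). Ggnbp1, which overlaps Bak1 on the opposite strand, stood at 2.99 ± 0.345 and 4.08 ± 0.487 CPM in the LPS and PE-CUR groups. Among the other members, Bcl2a1d overlaps Gm10634 on the opposite strand and Bcl2 overlaps Gm37053 on the same strand. Gm10634 and Gm37053 are also in the count table, and their levels are not reported here. Without a stated strand setting the reads of overlapping genes cannot be told apart. The fold estimates of both effectors lay between those of Bcl2l1 and Mcl1, and no test was made of the differences between genes.

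Bcl2l11 (chromosome 2, 128126038 to 128162547) encodes BIM, a BH3-only protein that binds all survival members. Its level was 75.3, 75.2 and 87.8 CPM in LPS, from 2454, 2470 and 3178 counts. With PE-CUR it was 21.9, 19.4 and 19.1 CPM, from 713, 658 and 529 counts. All PE-CUR libraries lay far below all LPS libraries, and LPS replicate 3 was the highest. The fall was 3.94-fold (log2 -1.98, SE 0.09, edgeR adjusted p = 5.27e-08). A lower log2 fold change was found in 577 of 13014 tested genes (4.43%), and 11.5% of tested genes were called with a fall of at least 2-fold.

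The sequence before the first annotated start of Bcl2l11 is shown because BIM is a known target of FOXO factors and this member moved most. It covers 250 to 151 bases before the start (chr2:128125788-128125887, plus strand, RefSeq promoter of GRCm38.p6), with capitals at a match to the FOXO motif GTAAACA, searched on both strands.
Bcl2l11: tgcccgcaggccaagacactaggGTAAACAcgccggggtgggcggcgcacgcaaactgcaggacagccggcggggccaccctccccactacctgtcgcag
The match begins 227 bases before the start. The motif is found in 3.65% of 32851 RefSeq promoter windows of 300 bases, each longer than the stretch shown, and among the 14 windows of the members in 1 of Bcl2l11 and 1 of Bbc3. The cyclic AMP response element TGACGTCA, in 1.79% of all windows, has no match among the 14. The element TGATGNAA, bound by C/EBP and ATF dimers, is in 3.97% of all windows and in those of Bcl2a1b and Bcl2a1d. The NF-kB consensus, in 8.46% of all windows, is matched in those of Bbc3 and Bcl2l1, and the p53 half-site, in 8.36%, in that of Bax. These matches are letters in a window and do not show binding. Foxo1 and Foxo3, named here after their values were seen, stood at 13.8 ± 0.782 and 82.1 ± 2.02 CPM in LPS and at 9.01 ± 0.837 and 69.7 ± 6.42 CPM with PE-CUR (mean ± SD, n = 3; log2 -0.62 and -0.24, edgeR adjusted p = 5.44e-04 and 0.0149).

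Pmaip1 (chromosome 18, 66458604 to 66465558) encodes NOXA, which binds MCL-1 and A1. It stood at 48.6, 57.3 and 55.8 CPM in LPS and at 39.2, 42.6 and 45.6 CPM with PE-CUR. The groups did not overlap but lay close, with LPS replicate 1 and LPS plus PE-CUR replicate 3 nearest to each other (1.27-fold lower, log2 -0.34, SE 0.08, edgeR adjusted p = 0.00402). Bbc3 (chromosome 7, 16308398 to 16318334) encodes PUMA, a BH3-only protein induced by p53. It stood at 33.3, 34.4 and 35.3 CPM in LPS and at 35.8, 36.5 and 36.7 CPM with PE-CUR. All PE-CUR values lay just above all LPS values, but the gene did not pass (log2 0.08, 95% interval -0.06 to 0.23, edgeR adjusted p = 0.308). Groups without overlap were seen in 9 of the 10 members and in 69.0% of all tested genes.

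**Figure D3:**
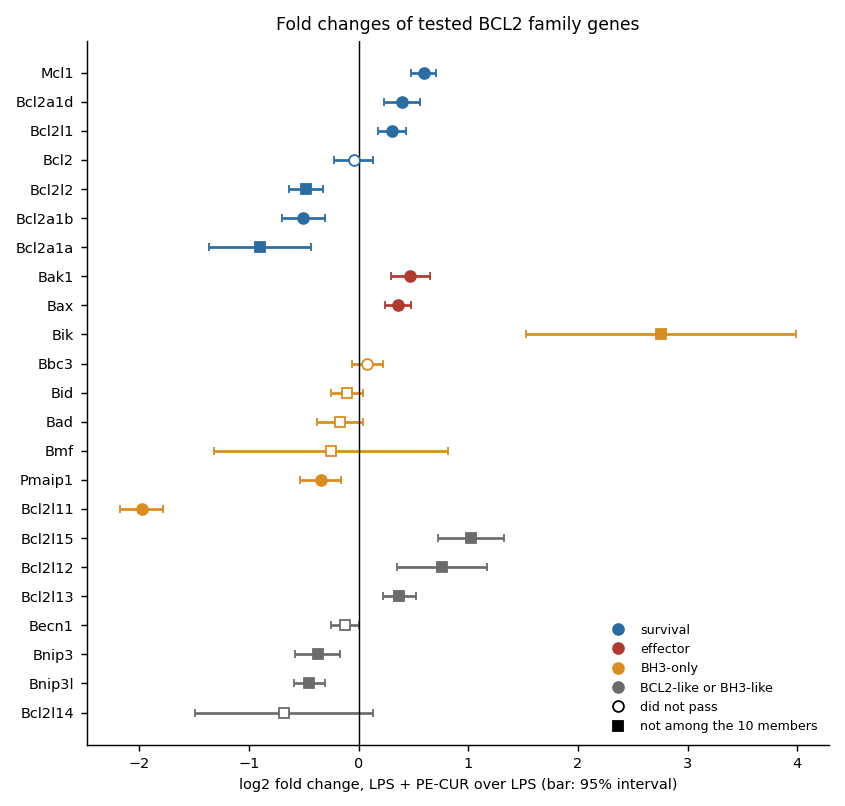
Log2 fold change (x axis, LPS plus PE-CUR over LPS, bars for 95% intervals) of the tested BCL2 family genes, coloured by role, with circles for the 10 members and squares for other family genes, and open symbols for genes that did not pass. Bcl2l11 stands apart on the left at -1.98, and the low-count gene Bik on the right at 2.76 has the widest interval, 1.53 to 3.99.

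Levels of different genes were compared per length, as FPKM. In LPS, Bax was first at 171 ± 2.40 FPKM and Bcl2a1b second at 109 ± 8.14 FPKM (mean ± SD, n = 3). Bak1, Mcl1, Bcl2l1 and Bcl2a1d followed at 56.0 ± 5.35, 50.5 ± 0.962, 44.4 ± 1.04 and 43.9 ± 2.88 FPKM. Pmaip1 stood at 20.7 ± 1.80 FPKM, and Bbc3, Bcl2l11 and Bcl2 were lowest at 8.74 ± 0.284, 8.12 ± 0.787 and 6.86 ± 0.667 FPKM. Bcl2l1 and Bcl2a1d differed by less than the SD of either, and Bbc3 and Bcl2l11 by less than the SD of Bcl2l11 but not that of Bbc3. With PE-CUR, Bcl2l11 was last at 1.98 ± 0.203 FPKM and Bcl2a1b, Bak1 and Mcl1 lay together at 73.7 ± 6.42, 74.6 ± 4.27 and 73.4 ± 2.35 FPKM.

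The order depends on the gene lengths behind the deposited FPKM. For Mcl1 that length is 8725 bases, against 3418 for its longest coding transcript in GENCODE M21 and a span of 6236 for the whole gene in RefSeq GRCm38.p6. With the GENCODE lengths, Mcl1 stood at 129 ± 2.45 FPKM in LPS and at 187 ± 6.01 with PE-CUR, and was second after Bax in LPS (146 ± 2.05) and within the SD of Bax with PE-CUR (180.2 ± 7.93). Bcl2l1 stood at 95.5 ± 2.23 FPKM in LPS on these lengths. For given counts, fold changes between groups do not depend on the length. The length exceeded the RefSeq span by over 1 base in 1.51% of 20996 genes. The annotation behind the counts is not stated and may differ from those used here.

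Summed by role on the deposited scale, the 5 survival members held 241, 266 and 256 FPKM in LPS and 261, 261 and 263 FPKM with PE-CUR, which overlapped. With GENCODE lengths the survival sum was higher with PE-CUR and did not overlap. It was 359, 387 and 375 FPKM in LPS and 433, 418 and 431 FPKM with PE-CUR. On the deposited scale the 2 effectors held 220.5, 235 and 226 FPKM in LPS and 287, 273 and 296 FPKM with PE-CUR, without overlap. The 3 BH3-only members held 34.8, 38.3 and 39.7 FPKM in LPS and 26.1, 26.1 and 27.4 FPKM with PE-CUR. Of this sum over the 3 members, Bcl2l11 made up 21.6% ± 1.45 in LPS and 7.48% ± 0.898 with PE-CUR (mean ± SD, n = 3). That share depends on the lengths. With GENCODE lengths Bcl2l11 stood at 16.1 FPKM of a sum of 55.6 in LPS. With PE-CUR it stood at 3.93 of 38.8. The sum leaves out other BH3-only genes, such as Bid at 35.7 ± 1.93 FPKM in LPS and 31.9 ± 1.82 with PE-CUR on deposited lengths. The ratio of survival to all death-promoting members was 0.961 ± 0.0141 in LPS and 0.839 ± 0.0306 with PE-CUR. With GENCODE lengths that ratio was 1.502 ± 0.0101 and 1.52 ± 0.0342, which overlapped, so the lower ratio with PE-CUR is not seen on that scale. It was also not lower from counts (1.93 in LPS and 2.43 with PE-CUR), which are not scaled by length. Nor was it lower without Bcl2a1b and Bcl2a1d (0.384 and 0.425). Without Mcl1 it was lower with PE-CUR, at 0.770 in LPS and 0.604 with PE-CUR. The ratio of survival to BH3-only members was not among the planned results. It leaves out Bax and Bak1, which rose, and family genes outside the members, such as Bid and Bcl2l2. For the genes it holds, it was higher with PE-CUR on both scales. It was 6.78 ± 0.289 in LPS against 9.85 ± 0.246 with PE-CUR on deposited lengths. On GENCODE lengths it was 6.74 ± 0.315 against 11.01 ± 0.153. No test was made of these sums.

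**Figure D4:**
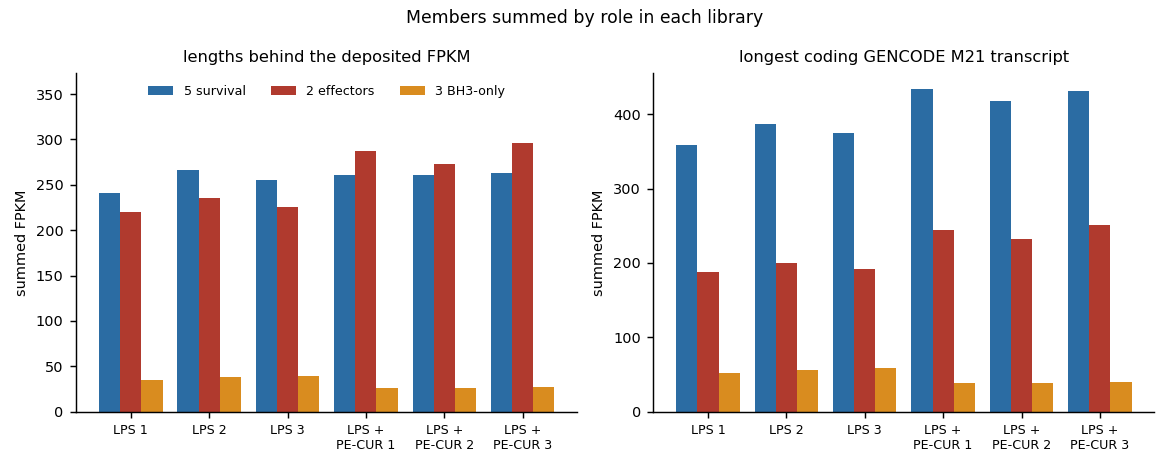
Summed FPKM (y axis, from 0) of the 5 survival, 2 effector and 3 BH3-only members in each library, with the gene lengths behind the deposited values (left) and with the longest coding GENCODE M21 transcripts (right). The effector bars exceed the survival bars with PE-CUR on the left, 273 to 296 against 261 to 263 FPKM, and stay below them on the right.

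Other family genes and the lists that follow are given for comparison, and each count of called genes is to be read against the 63.4% of all tested genes called, 30.8% as higher and 32.7% as lower. Bcl2l2, which encodes the survival protein BCL-W, fell from 49.0, 51.0 and 54.4 CPM to 35.01, 38.2 and 37.4 CPM (log2 -0.48, edgeR adjusted p = 1.32e-04). The survival gene Bcl2l10 had at most 1 count and Bok, which resembles the effectors, at most 7 counts in a library, and neither was tested. Of the 4 tested further BH3-only genes, Bid, Bad and Bmf did not pass. Bid, which links death receptors to mitochondria, stood at 84.0 ± 4.67 CPM in LPS and 78.1 ± 3.41 CPM with PE-CUR. Bad stood at 13.7 ± 0.244 and 12.1 ± 0.685 CPM, and its groups did not overlap. In the 3 limma fits on FPKM, Bad passed as lower (limma adjusted p = 0.0254, 0.0261 and 0.0461). Bmf stood at 9.71 ± 2.01 and 8.11 ± 4.47 CPM. It ranged from 4.69 to 13.2 CPM among PE-CUR libraries. It passed as lower without LPS plus PE-CUR replicate 1 (log2 -0.77, edgeR adjusted p = 0.00635) and turned to 0.04 without replicate 3. Bik was called higher from 1, 2 and 4 counts in LPS and 13, 21 and 12 with PE-CUR (log2 2.76, SE 0.56, edgeR adjusted p = 0.00123), which is close to the floor of detection in both groups.

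Among 7 BCL2-like genes and genes with a BH3-like region, 3 rose, 2 fell and 2 did not pass, a share called that is near that of all genes. Bcl2l13, a mitochondrial protein, rose from 47.1 ± 0.921 to 60.9 ± 4.14 CPM, and Bcl2l12 and Bcl2l15 rose from 2.45 to 4.16 and from 4.16 to 8.44 CPM (edgeR adjusted p = 6.57e-04, 0.00414 and 6.62e-05). The mitophagy receptor genes Bnip3 and Bnip3l fell from 121 ± 15.2 to 93.8 ± 6.33 CPM and from 104 ± 5.75 to 76.5 ± 2.78 CPM (edgeR adjusted p = 0.00500 and 9.64e-05). Becn1, an autophagy gene, was at 109 ± 4.94 and 99.7 ± 1.69 CPM and Bcl2l14 at 0.812 ± 0.181 and 0.509 ± 0.149 CPM, and neither passed. The calls of Bcl2l12 and Bnip3 did not hold without LPS plus PE-CUR replicates 1 and 2 together (log2 0.64 and -0.34). That fit left 1 library in the PE-CUR group.

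Of 10 genes of the mitochondrial membrane, released factors and apoptosome, 7 rose, 1 fell and 2 did not pass. Their median log2 fold change was 0.44, against -0.03 over all genes tested, of which 30.8% rose and 32.7% fell. The 7 include the membrane channel genes Vdac1, Vdac2 and Vdac3, of which Vdac3 passed by a small margin (log2 0.14, edgeR adjusted p = 0.0442). The protease gene Htra2 rose from 50.3 ± 3.51 to 100.6 ± 5.40 CPM (edgeR adjusted p = 6.88e-07). The channel gene Vdac1 rose from 182 ± 10.1 to 286 ± 6.27 CPM and Aifm1, the apoptosis-inducing factor, from 70.6 ± 3.78 to 105 ± 0.469 CPM (edgeR adjusted p = 3.15e-06 and 1.19e-05). Diablo, which encodes the released IAP antagonist SMAC, fell from 31.6 ± 1.08 to 27.9 ± 0.707 CPM (edgeR adjusted p = 0.0423). Leaving out any 1 of the 6 libraries ended the Diablo call (adjusted p from 0.0722 to 0.265). The apoptosome genes Apaf1 and Casp9 did not pass, at 74.1 ± 1.45 and 69.6 ± 3.12 CPM and at 30.5 ± 3.37 and 26.3 ± 2.23 CPM.

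Of 8 further caspase and substrate genes 4 rose, 1 fell and 3 did not pass (median 0.21), against 63.4% called among all genes. Parp1, a DNA repair enzyme that caspases cut, rose from 167 ± 6.55 to 298 ± 13.9 CPM and Casp2 from 31.6 ± 2.57 to 41.2 ± 3.32 CPM (edgeR adjusted p = 6.19e-07 and 0.00244). Casp8, the initiator caspase of death receptors, fell from 102 ± 5.72 to 65.9 ± 8.50 CPM (edgeR adjusted p = 1.67e-04). Of 9 tested death receptor genes 5 fell, 0 rose and 4 did not pass (median -0.41), against 32.7% lower and 30.8% higher among all genes. Tnfrsf1a, the main TNF receptor, fell from 67.3 ± 3.84 to 43.5 ± 2.27 CPM, and the kinase genes Ripk1 and Ripk3 fell from 81.6 to 59.1 and from 69.1 to 51.9 CPM (edgeR adjusted p = 1.69e-05, 1.78e-04 and 2.23e-04). Of 5 IAP genes, Xiap, which blocks caspases, fell from 278 ± 32.5 to 197 ± 18.4 CPM, Birc5, a mitotic gene also called survivin, rose from 19.8 ± 4.70 to 61.1 ± 2.79 CPM (edgeR adjusted p = 0.00143 and 1.04e-04), and 3 did not pass (median -0.18).

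Upstream, 17 genes known to act on the family were tested, namely transcription factor genes and the pseudokinase gene Trib3. Of these 4 rose, 9 fell and 4 did not pass (median -0.18), against 30.8% higher and 32.7% lower among all genes. With 1 library left out, 7 to 8 fell and 4 rose. The stress response genes Ddit3, which encodes the transcription factor CHOP, Trib3 and Atf3 fell from 162 ± 10.8 to 47.9 ± 7.15 CPM, from 148 ± 8.74 to 46.6 ± 5.85 CPM and from 268 ± 20.0 to 78.2 ± 13.4 CPM (log2 -1.75, -1.66 and -1.78, edgeR adjusted p = 1.31e-06, 2.46e-07 and 1.01e-05). Trp53, Nfkb1 and E2f1 rose, from 103 ± 5.76 to 158 ± 11.1 CPM, from 129.8 ± 5.99 to 179.6 ± 3.97 CPM and from 29.6 ± 2.45 to 42.1 ± 1.06 CPM (edgeR adjusted p = 1.70e-05, 3.38e-05 and 1.68e-04). The NF-kB genes did not move together. Rel rose and Rela fell (log2 0.58 and -0.37, edgeR adjusted p = 2.53e-04 and 0.00128), both named here after their values were seen. Of 11 tested p53 targets outside the family 5 rose, 4 fell and 2 did not pass (median -0.15), against 63.4% called among all genes. Zmat3, Aen and Ccng1 rose by 0.54, 0.50 and 0.32 on the log2 scale, while Trp53inp1, Sesn2 and Phlda3 changed by -1.47, -0.41 and -0.79 (edgeR adjusted p from 1.93e-07 to 0.00428 over the 6 genes). Of 8 NF-kB survival targets outside the family 3 rose, 0 fell and 5 did not pass (median 0.11), against 30.8% higher among all genes. Sod2 rose from 58.3 ± 0.250 to 107 ± 2.75 CPM and Traf1 from 26.3 ± 2.72 to 39.7 ± 6.21 CPM (edgeR adjusted p = 3.93e-07 and 0.00167). Tnfaip3, which encodes A20, rose from 23.1 ± 1.51 to 27.6 ± 2.14 CPM (edgeR adjusted p = 0.0232). The Tnfaip3 call was lost in 7 of 16 alternatives, among them the fits without LPS replicate 3 and without LPS plus PE-CUR replicate 3 (adjusted p = 0.0601 and 0.0690), the replicate block (0.0517), library size alone (0.0635) and all 3 limma fits (0.0782, 0.0809 and 0.124).

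MCL-1 protein is also set by its turnover. Of 6 tested turnover genes 2 rose, 2 fell and 2 did not pass (median 0.01), close to the 63.4% called among all genes. Huwe1 and Marchf5, which encode ubiquitin ligases for MCL-1, rose from 443 ± 23.7 to 597 ± 13.1 CPM and from 86.9 ± 2.98 to 99.7 ± 2.26 CPM, and the ligase gene Fbxw7 and the kinase gene Gsk3b fell from 44.1 ± 1.55 to 34.5 ± 1.56 CPM and from 161 ± 7.13 to 110.1 ± 6.27 CPM (edgeR adjusted p = 5.97e-05, 0.0108, 9.20e-04 and 2.21e-05). The deubiquitinase gene Usp9x did not pass, at 259 ± 32.0 and 262 ± 72.2 CPM. Protein levels were not measured in these data.

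**Figure D5:**
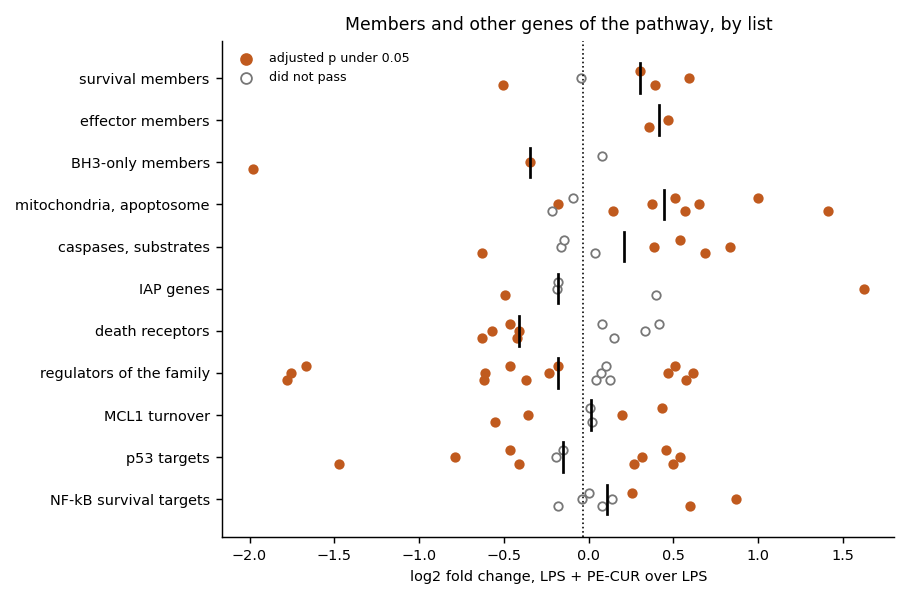
Log2 fold change (x axis, LPS plus PE-CUR over LPS) of the tested genes of each list (rows), filled where the edgeR adjusted p was under 0.05 and open otherwise, with a bar at the median of each list and a dotted line at the median of all genes tested (-0.03). Bcl2l11 at -1.98 is the leftmost point of the BH3-only row, and Atf3, Ddit3 and Trib3 at -1.78 to -1.66 are the leftmost of the row of regulators.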

How the data were processed

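Counts and FPKM values were deposited by the authors for 21604 gene symbols in 6 libraries of RAW 264.7 cells. The deposited counts are whole numbers per gene. Each deposited FPKM value is its count over 1 length per gene and the library total, in 100% of 105337 values above 0 (relative tolerance 1e-04), so the FPKM are no second measurement. The tools named per the submitters' processing notes are HTSeq, fastp, DESeq2 and SAMtools, with build mm10. The sources used here name no aligner, annotation or strand setting. Column names equal sample titles, which gave group and replicate.

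Counts were fitted in R 4.3.3 with edgeR 4.0.16 (filterByExpr, TMM factors, robust quasi-likelihood test with the group as its term, two-sided, Benjamini-Hochberg over 13014 genes, threshold 0.05). CPM are scaled by TMM factors, and a log2 SE is the log2 fold change divided by the root of F. The fit was also run on simulated counts in which few genes were changed. That run does not test the scaling for data in which 63.4% of genes were called. Positions and promoters are from RefSeq GRCm38.p6 (20996 symbols found), coding sequences and transcript lengths from GENCODE M21 of the same build. The 9 members other than Pmaip1 matched the promoter table. The members and gene lists were chosen with earlier results of these data known. Named were all members and tested family genes, and per list up to 3 passing genes with the smallest p in each direction. Some genes that this rule names are not reported here. March5 was read as Marchf5, and Hrk was not analysed here. Alternatives were other scalings, filters, DESeq2 1.42.0, limma 3.58.1 on log2(FPKM + 1) and log2(FPKM + 0.1), a replicate block and each library left out. The joint omission of 2 libraries and the GENCODE lengths were added after seeing the data. The ratio of survival to BH3-only members was not among the planned results.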

Additional observations from a re-analysis of the deposited data

How the results depend on the processing

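The numbers of members called higher or lower include Bcl2a1b and Bcl2a1d, whose directions are uncertain. These numbers were the same as reported in 63 of 64 comparisons over 16 alternatives. The exception is the fit without LPS plus PE-CUR replicates 1 and 2, chosen after seeing the data, in which 1 death-promoting member was called lower and the lone library of that group was assumed to vary like the others. Bcl2l11 stayed between -2.03 and -1.61 on the log2 scale in all 16. Without 1 library, genes called numbered 3746 to 4163 higher and 3447 to 4152 lower. With library size alone 3593 genes were higher and 4617 lower. The summed A1 copies moved to -0.14 without a low count filter, -0.18 in DESeq2, -0.13 without both LPS plus PE-CUR replicates 1 and 2, and between -0.21 and -0.10 without 1 library; the cause was not tested. Bcl2, near 0 in all fits, was 0.0057 without a low count filter and ranged from -0.080 to 0.040 without 1 library. It was above 0 without LPS replicate 1 (0.014), LPS replicate 3 (0.040) and LPS plus PE-CUR replicate 3 (0.0096). Bmf ranged from -0.77 to 0.039 without 1 library.

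The survival to death ratio in LPS and LPS plus PE-CUR was 0.384 and 0.425 without the A1 copies, 0.770 and 0.604 without Mcl1, 1.93 and 2.43 from counts, and 1.502 and 1.52 with GENCODE lengths, since each changes the weights of the genes. The replicate number as a block gave 3708 genes higher and 3953 lower, with the same 3 and 1 survival and 2 and 2 death-promoting counts. Same-numbered libraries deviated from their group means with correlations of -0.178 to -0.048, so the numbers were not taken as pairs. Among the named list genes, calls changed for Diablo (11 of 16 alternatives), Tnfaip3 (7), Becn1 (5), Marchf5 (4) and Bad (3), among others. Bik, with 1 to 21 counts in a library, was not tested under the filter at a mean of 1 CPM.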
